A study of Homo sapiens with 4 samples.

Results

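The 10 genes described here encode enzymes that turn glucose into lactate: HK2, GPI, PFKP, ALDOA, GAPDH, PGK1, PGAM1, ENO1, PKM and LDHA. They were taken by symbol, and all 10 were found among the 7698 protein-coding genes of the deposited table. The cells were MDA-MB-231, an established human triple-negative breast cancer line, and each group consisted of 2 libraries. One group was untreated. The other carried a small interfering RNA against PCBP2 (siPCBP2) according to titles and source names, although its treatment field names transfection with PCBP2 itself. The labels name no control RNA for the untreated cells, so the effects of transfection and of silencing cannot be told apart. The labels do not say whether replicate libraries were separate cultures. A p-value here therefore reflects the scatter of these libraries alone, and that scatter may be technical.

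PCBP2 mRNA, the check of the labels, measured 101.4 and 92.9 in untreated cells against 16.6 and 16.7 in siPCBP2 cells. All levels are in FPKM, fragments scaled to transcript length and library total, which is how the values were read because the header names no unit. PCBP2 was 1 of 4 genes of 7689 tested that passed an adjusted p under 0.05 by limma (adjusted p = 0.0119). Library totals ran from 352964 to 378204 FPKM, lowest in siPCBP2 2. The table gives no counts, so read depth is unknown. All 7 markers of the line were measured, with summed levels of 1523 and 1478 FPKM in the untreated and 1536 and 1367 FPKM in the siPCBP2 libraries. Among them the keratin KRT18 measured 85.5 and 86.2 against 45.9 and 44.9 FPKM (limma unadjusted p = 0.000178, adjusted p = 0.0847). KRT18 alone of the 7 had an unadjusted limma p under 0.05. The keratin KRT8 overlapped between groups, at 93.3 and 55.0 against 49.1 and 72.3 FPKM. Of the 7 markers, 5 had log2 fold changes below 0, beside 55.6% of all genes tested, and 2 above. Of 7 immune markers CD68 alone was analysed, at 28.7 and 29.1 against 35.2 and 38.7 FPKM, and of 7 stromal markers FABP4 alone, at 0.719 and 0.489 against 1.59 and 3.41 FPKM. Their part in the results was not tested. In bulk RNA, fewer cells of a type and less RNA per cell cannot be told apart.

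Glycolysis splits glucose into pyruvate in the cytosol. Its upper part spends ATP on phosphorylating the sugar, with hexokinase and phosphofructokinase as regulated, practically irreversible steps, and its lower part makes ATP and NADH. Lactate dehydrogenase then reduces pyruvate to lactate and returns NAD+. Many tumour cells make lactate from glucose even with oxygen present, a habit known as the Warburg effect. The genes of the pathway are known targets of the transcription factors HIF-1 and MYC.

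In siPCBP2 cells no glycolytic gene passed the threshold over all genes tested. The differences were small, between -0.29 and 0.35 on the log2(FPKM + 1) scale, and they did not run one way along the pathway. Enolase 1 (ENO1) and phosphoglycerate kinase 1 (PGK1), both of the lower part, were close to 1.18-fold lower with little spread between libraries. Platelet-type phosphofructokinase (PFKP), of the upper part, was 1.29-fold higher. LDHA and PKM, at the end of the pathway, differed mainly between the 2 siPCBP2 libraries.

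At an unadjusted limma p under 0.05, 1 of the 10 genes was lower and 1 higher, ENO1 and PFKP. Over all genes tested, 9.73% were lower and 5.67% higher at that p. By adjusted p, 0.052% of all genes were called lower and 0% higher, and 0 of the 10. Both siPCBP2 libraries lay below both untreated ones for 4 of the 10 (GAPDH, PGK1, ENO1 and LDHA), where 29.4% of all genes did so. They lay above for 2 (HK2 and PFKP), where 19.7% of all genes did so. The median log2 fold change of the 10 was -0.07, beside -0.04 for all genes tested.

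**Figure D1:**
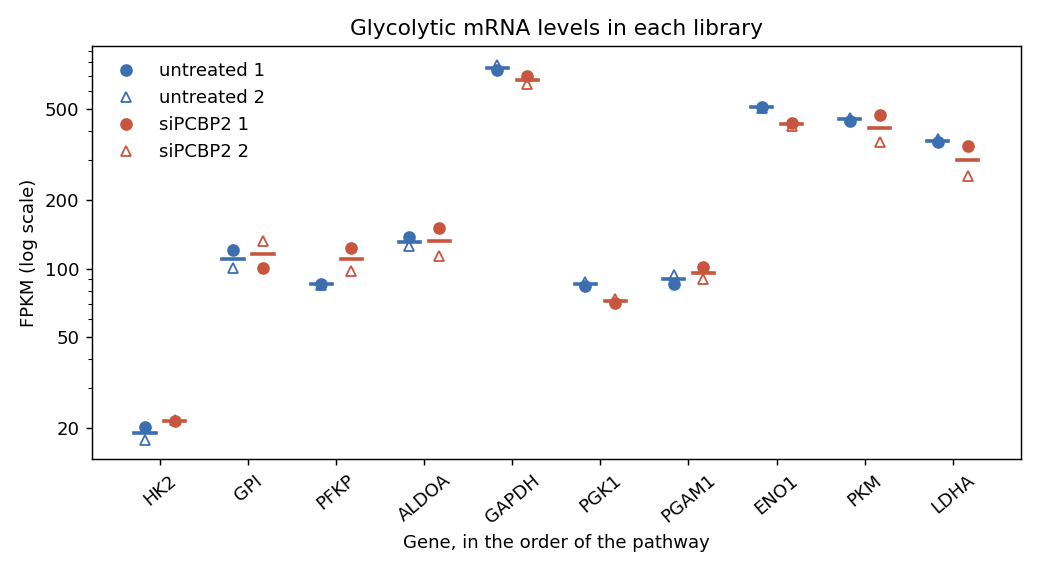
Level of each glycolytic mRNA in FPKM (vertical axis, log scale) in the 4 libraries, with genes in the order of the pathway; filled circles are replicate 1, open triangles replicate 2 and short lines the group means. GAPDH is the highest and HK2 the lowest in every library, and siPCBP2 2 lies below siPCBP2 1 for ALDOA, PFKP, PKM and LDHA and above it for GPI.

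Beside these changes, the levels themselves spanned a wide range. Together the 10 mRNAs summed to 2583 and 2625 FPKM in the untreated libraries and to 2512 and 2206 FPKM in the siPCBP2 libraries. That was 0.695% and 0.697% of the library total in untreated and 0.664% and 0.625% in siPCBP2 cells. Mitochondrial mRNAs made up 29.7% to 32.3% of each total, and of the remaining nuclear mRNA the 10 held 0.989% and 1.01% against 0.981% and 0.906%, so siPCBP2 1 lay close to the untreated libraries on that base. The lower sum of siPCBP2 2 stood beside the lowest library total, and its share of the total, 0.625%, was the lowest as well. The cause of either was not tested.

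In untreated cells GAPDH held 29.2% of the summed level, ENO1 19.5%, PKM 17.3% and LDHA 13.95%. The order of mean FPKM was GAPDH (760.1), ENO1 (508.0), PKM (451.4), LDHA (363.4), ALDOA (131.3), GPI (110.4), PGAM1 (89.7), PGK1 (85.4), PFKP (85.3) and HK2 (19.0). Each neighbour down to PGAM1 was separated by the range of the 2 untreated libraries, and so was HK2 from PFKP. PGAM1, PGK1 and PFKP overlapped and could not be ranked. The 4 abundant mRNAs of this set thus belong to the lower part of the pathway and to lactate formation. GAPDH ranked 29 and ENO1 50 among all 7698 genes by untreated mean, whereas HK2 ranked 3460. In siPCBP2 cells the means of the first 6 fell in the same order, but PKM exceeded ENO1 in siPCBP2 1 and GPI exceeded ALDOA in siPCBP2 2. PFKP lay above PGK1 in both siPCBP2 libraries and overlapped with PGAM1.

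Hexokinase 2 (HK2) phosphorylates glucose on entry and is the inducible hexokinase of many tumours. It measured 20.3 and 17.7 FPKM in the untreated and 21.5 and 21.6 FPKM in the siPCBP2 libraries. The siPCBP2 values were the higher ones, but the gap between the untreated libraries was as large as the difference between groups. Its log2 fold change was 0.18 (SE 0.13, 95% interval -0.14 to 0.50, limma adjusted p = 0.524).

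The more abundant hexokinase was HK1, the form found in most tissues, with 84.2 and 77.7 against 76.2 and 81.7 FPKM. HK1 exceeded HK2 by 4.15 and 4.38 times in untreated cells and by 3.54 and 3.77 times in siPCBP2 cells, so the ratio was lower in both siPCBP2 libraries. HKDC1, a hexokinase-like enzyme, had low levels of 6.41 and 9.63 against 11.4 and 11.1 FPKM (limma adjusted p = 0.361). The log2 fold change of HKDC1, 0.47, was 0.21 without untreated 1 and 0.73 without untreated 2. ADPGK, which uses ADP in place of ATP to phosphorylate glucose, measured 12.4 and 9.86 against 6.999 and 6.26 FPKM. Of the 8 other isozymes and steps analysed it was the only one at an unadjusted p under 0.05, with a log2 fold change of -0.66 (SE 0.18, limma unadjusted p = 0.0111, adjusted p = 0.221).

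Glucose-6-phosphate isomerase (GPI) makes fructose 6-phosphate. It measured 120.1 and 100.7 FPKM in the untreated and 100.6 and 131.9 FPKM in the siPCBP2 libraries. The groups overlapped completely, and the 2 siPCBP2 libraries held both the lowest and the highest value. Its log2 fold change was 0.07 (SE 0.17, 95% interval -0.36 to 0.49), and it turned to -0.06 without untreated 2 and to -0.13 without siPCBP2 2.

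PFKP is the platelet-type subunit of phosphofructokinase, the enzyme that commits the sugar to glycolysis. It measured 86.1 and 84.6 FPKM in the untreated libraries and 122.6 and 97.3 FPKM in the siPCBP2 libraries. Both siPCBP2 values were above the untreated ones, which lay close together, while siPCBP2 1 stood well above siPCBP2 2. On the log2 scale it was higher by 0.35 (SE 0.14, 95% interval 0.0040 to 0.70, limma unadjusted p = 0.0482, adjusted p = 0.320). Under the other scalings its unadjusted p was also under 0.05 and its adjusted p was not. After quantile normalization it was 0.41 (limma unadjusted p = 0.0157) and at 1 common total 0.39 (limma unadjusted p = 0.0197). At a common total without mitochondrial mRNAs it was 0.41 (limma unadjusted p = 0.0172), and by median of ratios 0.40 (limma unadjusted p = 0.0218). Without siPCBP2 1 it was 0.19 (limma unadjusted p = 0.162), so much of its size came from that library, and without siPCBP2 2 it was 0.52 (limma unadjusted p = 0.00759, adjusted p = 0.253). The unadjusted call was also lost without a trend (limma unadjusted p = 0.0773), with the replicate number as a block (0.0524), without untreated 1 (0.131) and without untreated 2 (0.151).

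The other phosphofructokinase subunits had log2 fold changes below 0 with intervals on both sides of it. The liver-type subunit, PFKL, measured 24.4 and 24.99 against 26.6 and 21.6 FPKM, and the muscle-type subunit, PFKM, 21.2 and 23.0 against 21.7 and 18.0 FPKM. Their log2 fold changes were -0.04 (95% interval -0.40 to 0.31) and -0.15 (95% interval -0.51 to 0.20). The ratio of PFKP to PFKL was 3.53 and 3.38 in untreated cells and 4.62 and 4.51 in siPCBP2 cells. Against PFKM, PFKP stood at 4.06 and 3.67 in untreated cells and at 5.66 and 5.39 in siPCBP2 cells. Within the siPCBP2 group these ratios differed less than PFKP itself did, and they did not overlap with the untreated ratios. A ratio between 2 genes does not depend on a factor applied to a whole library, but quantile normalization can change it. With 2 libraries against 2 an exact permutation test of a ratio has 0.333 as its smallest two-sided p, and none was run.

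Aldolase A (ALDOA) splits fructose 1,6-bisphosphate into triose phosphates. It measured 137.2 and 125.5 FPKM in the untreated and 151.2 and 113.7 FPKM in the siPCBP2 libraries. The siPCBP2 values enclosed the untreated ones, and the log2 fold change was -0.0013 (SE 0.16, 95% interval -0.40 to 0.40). Its sign changed under each of the 4 other scalings. Triose-phosphate isomerase (TPI1), which interconverts the products of aldolase, measured 144.4 and 159.5 against 160.9 and 164.5 FPKM. Its log2 fold change was 0.10 (95% interval -0.16 to 0.36).

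**Figure D2:**
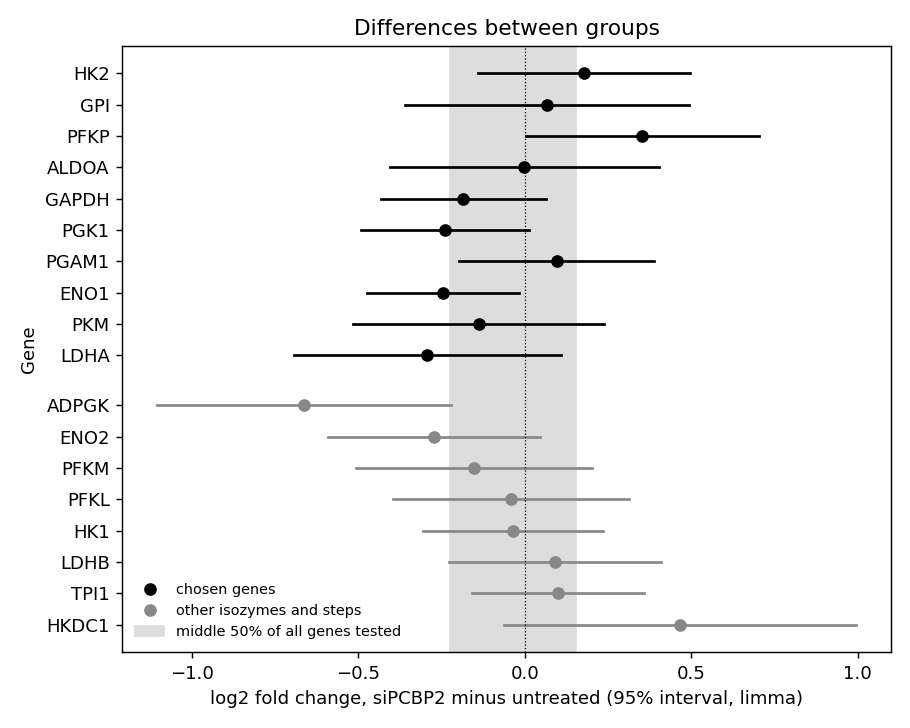
log2 fold change on the log2(FPKM + 1) scale (horizontal axis, siPCBP2 minus untreated) with 95% limma intervals for the 10 glycolytic genes (black, pathway order) and 8 other isozymes and steps (grey); the grey band runs from -0.23 to 0.15 and holds the middle 50% of all genes tested. Among the black points the intervals of ENO1, below 0, and PFKP, above 0, leave out 0, and adjusted over all genes neither passed.

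GAPDH oxidises glyceraldehyde 3-phosphate and forms NADH, and its mRNA is a common reference in expression studies. It measured 737.9 and 782.3 FPKM in the untreated and 695.0 and 642.9 FPKM in the siPCBP2 libraries. Both siPCBP2 values were the lower ones, at a log2 fold change of -0.18 (SE 0.10, 95% interval -0.43 to 0.06, limma adjusted p = 0.420). GENCODE 29 names 62 pseudogenes of GAPDH, so its value depends on how the quantifier divided fragments that match several copies.

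PGK1 makes the first ATP of the pathway. It measured 83.6 and 87.3 FPKM in the untreated and 70.6 and 73.7 FPKM in the siPCBP2 libraries. The groups were apart and the libraries within each close together. This was a log2 fold change of -0.24 (SE 0.10, 95% interval -0.49 to 0.01, limma unadjusted p = 0.0580, adjusted p = 0.342).

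Phosphoglycerate mutase 1 (PGAM1), which moves the phosphate group between carbons, measured 85.4 and 93.9 FPKM in the untreated and 101.8 and 90.1 FPKM in the siPCBP2 libraries. The groups overlapped, with a log2 fold change of 0.10 (SE 0.12, 95% interval -0.20 to 0.39). GENCODE 29 names 13 pseudogenes of PGAM1, against 4 of ENO1 and 1 of PGK1.

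ENO1 removes water from 2-phosphoglycerate to form phosphoenolpyruvate, and at the cell surface it is also known as a plasminogen receptor. It measured 511.1 and 505.0 FPKM in the untreated and 434.6 and 422.4 FPKM in the siPCBP2 libraries. Both groups were tight and well apart. ENO1 was 1.19-fold lower, with means of 508.0 ± 4.32 and 428.5 ± 8.59 FPKM (SD, n = 2). The log2 fold change was -0.25 (SE 0.09, 95% interval -0.47 to -0.02), with an unadjusted limma p of 0.0391 and an adjusted p of 0.303. In size the change was ordinary, since 38.5% of all genes tested changed by more in either direction. The steadiness was less common: 93.1% of genes had a larger gap between the untreated libraries and 87.3% a larger gap between the siPCBP2 libraries. In the authors' deposited table ENO1 had an untreated over siPCBP2 fold of 1.19 (p = 0.00222, q = 0.517).

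The unadjusted call of ENO1 was lost under 9 of the 13 alternatives. By scaling, its log2 fold change was -0.21 at 1 common total (limma unadjusted p = 0.0564), -0.19 at a common total without mitochondrial mRNAs (limma unadjusted p = 0.0780), -0.20 by median of ratios (limma unadjusted p = 0.0601) and -0.15 after quantile normalization (limma unadjusted p = 0.0814). The limma unadjusted p was 0.0929 without a trend and 0.0953 with the replicate number as a block. It was 0.183 without untreated 1, 0.157 without untreated 2 and 0.0739 without siPCBP2 2 (limma unadjusted p), and below the threshold without siPCBP2 1 (limma unadjusted p = 0.0461). The direction was the same under all 13 alternatives. ENO2, the neuronal enolase, measured 20.9 and 18.6 against 16.4 and 15.9 FPKM, also with both siPCBP2 libraries below. Its log2 fold change was -0.27 (95% interval -0.59 to 0.05, limma adjusted p = 0.372). The ratio of ENO1 to ENO2 was 24.4 and 27.2 in untreated cells and 26.5 and 26.6 in siPCBP2 cells, so these enolases kept their proportion within the spread of the untreated libraries. The ratio of ENO1 to PGK1, at 6.11 and 5.79 against 6.15 and 5.73, also overlapped between the groups. PFKP over ENO1, by contrast, was 0.168 and 0.167 in untreated cells and 0.282 and 0.230 in siPCBP2 cells, a pair chosen after the values were seen.

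Across the 4 libraries the genes closest to ENO1 in pattern were TOP3A, PARP1, JAK1, TRIM44 and AFMID. Likeness was the root mean square difference of log2(FPKM + 1) after centring each gene on its mean, and for these it ran from 0.0071 to 0.0124. PARP1, a DNA-break sensor, measured 63.9 and 62.3 against 54.5 and 52.2 FPKM. TOP3A, a DNA topoisomerase, measured 22.8 and 22.8 against 19.5 and 18.8 FPKM. With 4 libraries the measure separates little: 1232 other genes lay within 0.1 of ENO1. Of the glycolytic genes PGK1 was nearest, at 0.0456 and position 169 of all genes, followed by GAPDH at 0.0534 and position 253.

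Pyruvate kinase (PKM) transfers the phosphate of phosphoenolpyruvate to ADP. Its gene gives a PKM1 and a PKM2 enzyme by alternative splicing, which a value per gene does not separate. PKM measured 443.6 and 459.2 FPKM in the untreated and 469.8 and 357.4 FPKM in the siPCBP2 libraries. The siPCBP2 libraries held the highest and the lowest value. Its log2 fold change was -0.14 (SE 0.15, 95% interval -0.52 to 0.24), and it turned to 0.06 without siPCBP2 2.

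LDHA encodes the M subunit of lactate dehydrogenase, the form that favours lactate. It measured 358.0 and 368.8 FPKM in the untreated and 344.0 and 255.0 FPKM in the siPCBP2 libraries. Both siPCBP2 values were lower, but siPCBP2 1 only slightly and siPCBP2 2 by far. The log2 fold change of -0.29 was the lowest of the 10, with an SE of 0.16, a 95% interval of -0.69 to 0.11 and a limma adjusted p of 0.423. It was -0.08 without siPCBP2 2 and -0.51 without siPCBP2 1 (limma adjusted p = 0.232), so 1 library decided its size.

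LDHB, the H subunit of the same tetramer, measured 134.8 and 155.8 against 144.1 and 165.2 FPKM. Its groups overlapped, with a log2 fold change of 0.09 (95% interval -0.23 to 0.41). LDHA over LDHB was 2.66 and 2.37 in untreated cells and 2.39 and 1.54 in siPCBP2 cells. Only siPCBP2 2 lay outside the untreated range of this ratio.

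**Figure D3:**
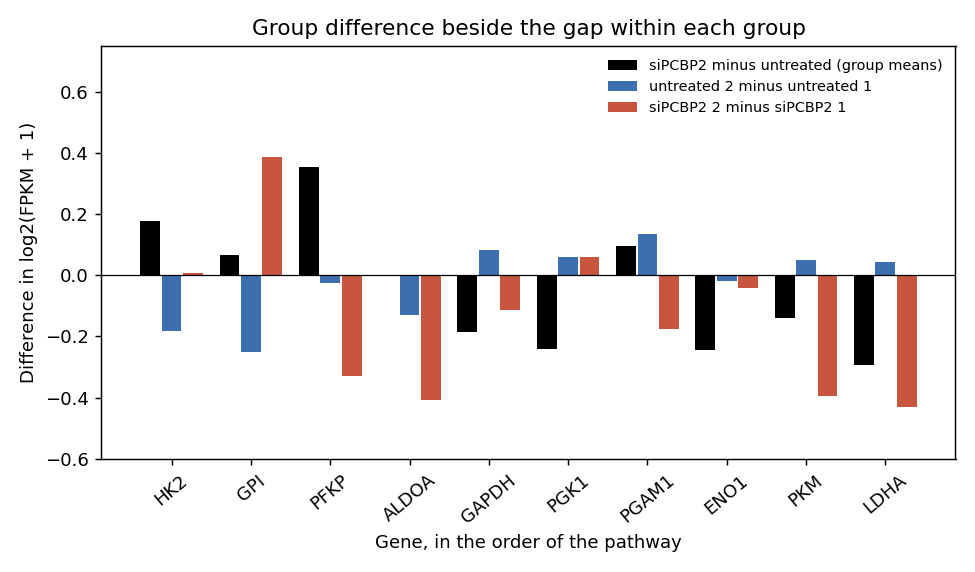
For each glycolytic gene, the difference in log2(FPKM + 1) between group means (black), between the untreated libraries (blue) and between the siPCBP2 libraries (red). For PFKP, GAPDH, PGK1 and ENO1 the black bar is longer than both coloured bars, and for the other 6 genes at least 1 coloured bar is longer.

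The spread within the siPCBP2 group was thus as much a part of these data as the difference between groups. From siPCBP2 1 to siPCBP2 2, LDHA differed by -0.43, ALDOA by -0.41, PKM by -0.39 and PFKP by -0.33 in log2(FPKM + 1), while GPI differed by 0.39. A gap as large as that of LDHA was exceeded by 16.3% of all genes tested, and that of PFKP by 26.0%. In all, 7 of the 10 were lower in siPCBP2 2, beside 58.7% of all genes. Between the untreated libraries the gaps of the 10 were at most 0.25 in size, the value of GPI.

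In hg38, ENO1 (ENSG00000074800) spans chr1:8861002-8879249 and is read from the minus strand. Read from the plus strand are PFKP (ENSG00000067057) at chr10:3066333-3137712, LDHA (ENSG00000134333) at chr11:18394388-18408425 and PGK1 (ENSG00000102144) at chrX:78065188-78129296. In GENCODE 29, exons of GPI, ALDOA and PGK1 each overlap those of 1 other coding gene on the same strand, which for PGK1 is ATP7A. The deposited spans equal those of GENCODE 29 for 6 of the 10 genes, but not for GPI, ALDOA, PGK1 and ENO1. PGK1 starts at 77910739 there, before the deposited start, so its overlap with ATP7A may not hold in the annotation used. Also in GENCODE 29, exons of HK2, ALDOA, GAPDH and ENO1 each overlap those of 1 gene on the opposite strand. Exons of PFKP and PGK1 each overlap those of 1 gene on the same strand that is not typed as coding. The use of strand in counting is not given in the sources used here. Reads of such pairs may not have been told apart.

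Glycolytic genes are known for HIF-1 sites in their promoters, whose core is read here as ACGTG on either strand. RefSeq promoter windows on GRCh38.p14 matched all 10 genes, with 17 start sites. The 250 bases before the start held the word at 10 of these start sites, belonging to 7 of the 10 genes. Over all 35116 windows of that length 18.5% held it, a share per window and not per gene. A gene counted if any of its windows held the word, and windows of the same gene may overlap, as at ALDOA. The windows of ENO1, PGAM1 and PKM had no match, which says only that these letters are not in these windows. Variants of the word, such as GCGTG, were not counted, and the ENO1 and PGK1 windows printed below both hold GCGTG. The E-box CACGTG, a word bound by MYC and MAX that contains ACGTG on both strands, was found in 6.34% of all windows. Printed 5′ to 3′ are the windows of ENO1 and PGK1, the pair with close patterns, and of LDHA, the gene split between the siPCBP2 libraries. Capitals mark ACGTG or its reverse complement CACGT.
ENO1, chr1:8878687-8878936, minus strand: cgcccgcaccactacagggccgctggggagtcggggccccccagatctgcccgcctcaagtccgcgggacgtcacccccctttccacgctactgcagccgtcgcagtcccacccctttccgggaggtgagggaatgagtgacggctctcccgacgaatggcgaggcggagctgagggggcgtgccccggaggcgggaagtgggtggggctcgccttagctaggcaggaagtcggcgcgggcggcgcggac
PGK1, chrX:78103998-78104247, plus strand: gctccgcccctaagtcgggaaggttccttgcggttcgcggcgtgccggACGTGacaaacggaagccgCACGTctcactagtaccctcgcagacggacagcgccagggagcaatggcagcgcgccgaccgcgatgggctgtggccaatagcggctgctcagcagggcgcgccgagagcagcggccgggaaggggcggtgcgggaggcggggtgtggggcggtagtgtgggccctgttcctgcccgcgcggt
LDHA, chr11:18394313-18394562, plus strand: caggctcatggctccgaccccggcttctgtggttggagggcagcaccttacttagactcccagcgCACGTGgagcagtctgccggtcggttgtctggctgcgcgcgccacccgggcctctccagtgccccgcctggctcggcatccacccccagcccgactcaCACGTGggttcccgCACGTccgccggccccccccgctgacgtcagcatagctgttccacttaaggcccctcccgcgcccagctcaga
The LDHA window holds the word at 3 places, 2 of them full E-boxes, and the PGK1 window at 2 places, neither an E-box. RefSeq gives LDHA 2 start sites, and the window of the other one, chr11:18396101-18396350, has no match. No binding was measured here.

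Of the genes around glycolysis, 9 lists naming 113 genes were examined, of which 70 were analysed here. None of the 70 passed over all genes tested by limma. At an unadjusted p under 0.05, 10 were lower and 3 higher, 14.3% and 4.29% of them, beside 9.73% and 5.67% of all genes. Their median log2 fold change was -0.10, beside -0.04 for all genes.

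Of 6 glucose and lactate carriers, 0 had an unadjusted p under 0.05. SLC16A3, the lactate exporter MCT4, measured 51.1 and 53.4 against 46.5 and 35.4 FPKM, a log2 fold change of -0.36 (SE 0.16, limma adjusted p = 0.354). It was -0.17 without siPCBP2 2 and -0.55 without siPCBP2 1. BSG, the chaperone of lactate carriers, measured 147.4 and 112.6 against 141.7 and 150.5 FPKM, and its groups overlapped. Of 6 genes that set fructose 2,6-bisphosphate or the phosphorylation of pyruvate dehydrogenase, 1 was lower at that p. That was PDP2, a phosphatase that activates pyruvate dehydrogenase, at 6.87 and 6.57 against 3.18 and 1.25 FPKM (log2 fold change -1.33, SE 0.34, limma adjusted p = 0.216). Its log2 fold change was -0.88 without siPCBP2 2. The related PDP1 measured 66.2 and 63.5 against 75.7 and 71.1 FPKM, and PFKFB3, which makes fructose 2,6-bisphosphate, 8.88 and 11.8 against 13.2 and 6.08 FPKM.

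Genes of mitochondrial pyruvate use had negative log2 fold changes for 7 of 8, with a median of -0.22; of all genes tested 55.6% were negative, with a median of -0.04. Of these, 1 was lower at an unadjusted p under 0.05, the pyruvate dehydrogenase subunit PDHB, at 34.1 and 37.0 against 22.5 and 26.5 FPKM (log2 fold change -0.52, SE 0.13, limma adjusted p = 0.214). Both siPCBP2 libraries lay below both untreated ones for 5 of the 8, beside 29.4% of all genes. The counts of this list were not repeated under other scalings. DLD, a subunit shared by several dehydrogenases, measured 46.0 and 43.6 against 37.2 and 38.4 FPKM, and PDHA1, the partner of PDHB, 40.8 and 37.3 against 37.4 and 35.2 FPKM.

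In the pentose phosphate pathway, which makes NADPH and ribose from glucose 6-phosphate, 1 of 8 was lower and 1 higher at that p. The higher one was RPIA, which makes ribose 5-phosphate, at 15.7 and 15.5 against 21.7 and 23.7 FPKM (log2 fold change 0.51, SE 0.12, limma adjusted p = 0.198). The lower one was H6PD, an enzyme of the endoplasmic reticulum, at 10.3 and 12.1 against 8.69 and 6.77 FPKM (limma adjusted p = 0.305). Transketolase, TKT, measured 108.8 and 119.1 against 158.5 and 126.6 FPKM, with siPCBP2 1 the higher library as for PFKP. For TKT the log2 fold change of 0.31 was 0.15 without siPCBP2 1 and 0.47 without siPCBP2 2. TALDO1, the transaldolase, measured 95.2 and 99.7 against 105.2 and 95.9 FPKM.

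Among 11 genes of serine, glycerol and glycogen branches, 2 were lower and 1 higher at that p. PSAT1, of serine synthesis, measured 11.2 and 10.8 against 8.92 and 7.02 FPKM, and GPD2, of the glycerol phosphate shuttle, 25.8 and 21.7 against 18.5 and 18.2 FPKM. Glycogen synthase, GYS1, was the higher one, at 10.2 and 11.5 against 15.9 and 13.6 FPKM. The limma adjusted p of these ranged from 0.303 to 0.318. The log2 fold change of PSAT1, -0.43, was -0.27 without siPCBP2 2 (limma unadjusted p = 0.168), and that of GPD2, -0.35, was -0.23 without untreated 1 (limma unadjusted p = 0.243). The abundant members were PYGL, a glycogen phosphorylase, at 95.9 and 97.9 against 101.9 and 93.8 FPKM, and UGP2, which makes UDP-glucose, at 52.7 and 61.6 against 63.5 and 59.7 FPKM. Of gluconeogenesis 2 genes were analysed. FBP1, which reverses the phosphofructokinase step, measured 16.2 and 19.1 FPKM in the untreated and 8.77 and 9.85 FPKM in the siPCBP2 libraries. It was 1.90-fold lower, opposite to PFKP, with a log2 fold change of -0.85 (SE 0.15, limma unadjusted p = 0.00179, adjusted p = 0.151). G6PC3, a glucose 6-phosphatase, measured 15.5 and 15.2 against 16.3 and 9.38 FPKM.

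**Figure D4:**
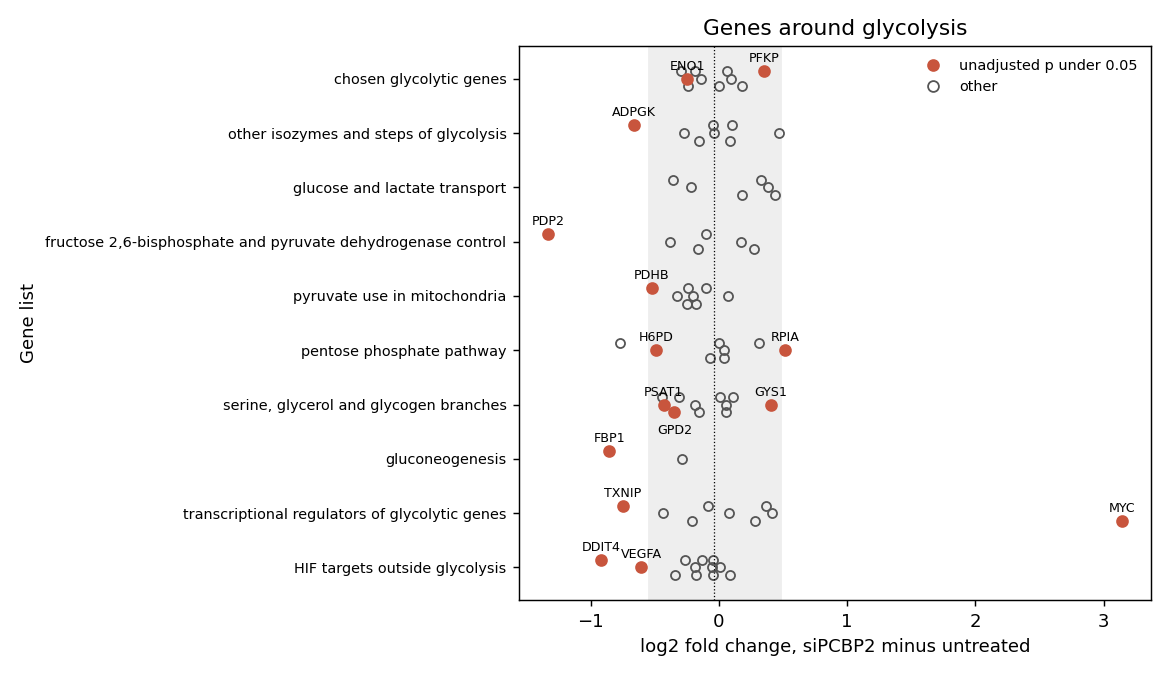
log2 fold change on the log2(FPKM + 1) scale (horizontal axis, siPCBP2 minus untreated) of each analysed gene in the glycolytic set and 9 lists around it; filled points have an unadjusted limma p under 0.05, the grey band from -0.55 to 0.49 holds the middle 90% of all genes tested and the dotted line is their median of -0.04. MYC lies far to the right at 3.14. None of the 10 glycolytic genes leaves the band, while ADPGK, of the other isozymes and steps, lies outside it at -0.66.

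The regulators of these genes included the widest change. MYC measured 6.13 and 7.42 FPKM in the untreated and 105.4 and 42.9 FPKM in the siPCBP2 libraries, a 10.9-fold higher mean, with a log2 fold change of 3.14 (SE 0.41, limma unadjusted p = 0.00043, adjusted p = 0.108). It did not pass the threshold, and its 2 siPCBP2 libraries were far apart, siPCBP2 1 being the higher. HIF1A, the oxygen-regulated subunit of HIF-1, measured 113.9 and 107.8 against 107.0 and 101.6 FPKM, a log2 fold change of -0.09 (95% interval -0.34 to 0.16). TXNIP, a glucose-induced gene whose protein restrains glucose uptake, measured 32.7 and 34.7 against 20.1 and 19.2 FPKM. It was 1.72-fold lower, with a log2 fold change of -0.75 (SE 0.11, limma unadjusted p = 0.000913, adjusted p = 0.151).

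HIF targets outside glycolysis had negative log2 fold changes for 10 of 12, with a median of -0.15, beside 55.6% and -0.04 for all genes. Of the 10, KDM3A (-0.04), LOX (-0.04) and P4HA1 (-0.05) lay close to the median of all genes. The count was not repeated under other scalings. At an unadjusted p under 0.05, 2 of the 12 were lower, beside 9.73% of all genes. VEGFA, the vascular growth factor, measured 82.9 and 65.5 against 52.4 and 44.1 FPKM (limma adjusted p = 0.222). DDIT4, an inhibitor of mTOR signalling, measured 15.1 and 17.1 against 8.13 and 7.98 FPKM (limma adjusted p = 0.151). PLOD2, a collagen-modifying enzyme, measured 46.4 and 34.8 against 32.6 and 30.4 FPKM and did not reach that p. For PLOD2 the log2 fold change of -0.34 was -0.14 without untreated 1 and -0.55 without untreated 2. In this list both siPCBP2 libraries lay below both untreated ones for 5 of 12, beside 29.4% of all genes.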

How the data were processed

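The 4 MDA-MB-231 libraries were made from mRNA bound to poly-T beads and sequenced in paired ends, per the labels' protocols. The genome build hg38 and the tools HISAT2 2.0, Trimmomatic 0.36, FastQC 0.11.2 and bedtools 2.26.0 come from the submitters' processing notes. Quantifier and annotation are not given in the sources used here. All deposited FPKM values, taken as such from their range, were used as they stand. The authors' fold (a ratio), p-values and q-values come from the deposited table and from an unstated test.

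A gene was kept where 2 or more libraries reached 1 FPKM (7689 kept, 9 left out). log2(FPKM + 1) was tested with limma 3.58.1 in R 4.3.3, with trend, two-sided, and Benjamini-Hochberg adjustment over all genes tested; the pseudocount understates changes of low genes. The fit was tested on simulated data with changes larger than those of the 10 genes, so that test does not cover changes of their size. The genes and lists were chosen with earlier results of these data known. Genes named outside the 10 were all other isozymes, those of each list at an unadjusted p under 0.05 and its 2 most abundant, PCBP2, and the 5 nearest to ENO1. Alternatives covered pseudocount, filter, scaling, trend, replicate block and each library left out.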

Additional observations from a re-analysis of the deposited data

How the results depend on the processing

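None of the 10 glycolytic genes passed an adjusted p under 0.05 under any of 13 alternatives. The count of 4 genes called in the whole table was 2 under quantile normalization, under scaling to 1 common total with or without mitochondrial mRNAs, and under median-of-ratios scaling. It was 0 by limma without a trend (1220 genes at an unadjusted p under 0.05) and 0 with the replicate number as a block (940 at that p). It was 0 with any 1 library left out (632 to 1192 at that p), a fit in which the remaining library is given the spread of the other pair. The split of unadjusted calls, 748 lower and 436 higher, became 612 and 579 after quantile normalization, 616 and 551 at a common total, 552 and 645 at a common total without mitochondrial mRNAs, 602 and 593 by median of ratios and 771 and 314 without siPCBP2 1. The median of all genes moved from -0.04 to at most 0.02 by scaling.

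The log2 fold change of ENO1 was -0.27 to -0.22 with a library left out, with a limma unadjusted p of 0.0461 to 0.183; over all 13 alternatives it was -0.27 to -0.15, with a limma unadjusted p of 0.0385 to 0.183. For ALDOA it turned to 0.0359 after quantile normalization, 0.0321 at a common total, 0.0581 without mitochondrial mRNAs and 0.0424 by median of ratios, and ran from -0.21 to 0.20 with a library left out. For GPI that range was -0.13 to 0.26 and for PKM -0.34 to 0.0578. HK1 turned to 0.0466 after quantile normalization, 0.0231 at a common total without mitochondrial mRNAs and 0.0076 by median of ratios; PFKL turned to 0.0156 and 0.000521 under those last scalings. With a library left out, ranges that crossed 0 were -0.0936 to 0.0216 for HK1, -0.19 to 0.10 for PFKL, -0.0135 to 0.19 for LDHB, -0.67 to 0.34 for PFKFB3, -0.0474 to 0.0719 for PYGL, -0.0137 to 0.37 for BSG, -0.66 to 0.0836 for G6PC3, -0.0225 to 0.11 for TALDO1 and -0.0019 to 0.22 for UGP2. The cause was not tested. With siPCBP2 1 left out, the median log2 fold change of the 10 was -0.21, beside -0.06 for all genes tested. Without siPCBP2 2 these medians were -0.0104 and -0.0118.

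For same-numbered libraries the labels give only the shared number and no pairing. Across genes, their within-group differences correlated at -0.0888, which cannot show whether they were paired. With the replicate number as a block, neither ENO1 (limma unadjusted p = 0.0953, adjusted p = 0.449) nor PFKP (limma unadjusted p = 0.0524, adjusted p = 0.405) reached an unadjusted p under 0.05. Sequencing depth is unknown, so no counting error was given, and 2 libraries per group limit every interval.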
